A study of Oryctolagus cuniculus with 6 samples.

Results

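Neutrophil genes and alarmins were read in the facial nerve of rabbits in the FNI (facial nerve injury) group and the FNI+I-125 group. The 8 genes are the alarmins S100A8, S100A9 and S100A12, the growth factor CSF3 and its receptor CSF3R, the secreted protein CHI3L1, the granule protein LTF and the receptor FPR1. They were taken by gene symbol, and all 8 were found by symbol among the 17396 genes listed. After a filter on low counts 7 of the 8 were tested, with 14003 genes in all, and CSF3 did not pass. All rabbits were wild type by their labels, male Japanese white and 3 to 4 months old, and all had the main trunk of the facial nerve cut. The FNI group (n = 3) had the cut alone. The FNI+I-125 group (n = 3) also received an I-125 seed of 0.8 mCi, a sealed source of low-energy radiation, at 0.3 to 0.5 cm from the nerve. All nerves were taken on day 14. RNA of a sham group was not analysed here, so the levels cannot be read against an uncut nerve.

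Neutrophils are short-lived white blood cells that reach injured tissue early by following chemoattractants. They take up debris and release granules, oxidants and alarmins, which are proteins that signal damage once outside the cell. S100A8 and S100A9 pair as calprotectin, which binds zinc and calcium and signals through TLR4 and RAGE (encoded by AGER). S100A12 is a related calcium-binding alarmin of the same gene cluster. CSF3 encodes G-CSF, the growth factor that drives neutrophil production, and CSF3R encodes its receptor. FPR1 senses formylated peptides from bacteria and mitochondria, CHI3L1 is a chitinase-like protein without enzyme activity, and LTF encodes lactoferrin, an iron-binding protein of the secondary granule. Several of these genes have other sources. Squamous epithelium makes S100A8 and S100A9, glands secrete lactoferrin, and macrophages and monocytes express CHI3L1, FPR1 and CSF3R.

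Total counts were 16031151 to 16798012 per library, so depth was nearly equal. Levels are given as CPM, a gene's count scaled to a common library size with TMM factors, and 3 values for a group are in the order of replicates 1, 2 and 3. All 14 markers of Schwann cells and myelin had counts in every library. Their summed level was 8214, 4658 and 39060 CPM in the FNI group and 955, 4340 and 2092 CPM in the FNI+I-125 group. Other tissues were present unevenly. Skeletal muscle markers summed to 5463 and 4628 CPM in FNI+I-125 replicates 1 and 2 and to 11.6 to 81.3 CPM in the other libraries. Salivary gland markers summed to 58500 CPM in FNI replicate 2 and to 980 to 4130 CPM elsewhere. CST3, a gene on that list that many cells express, was most of the sum in FNI replicate 3 and FNI+I-125 replicates 2 and 3. Epithelium markers summed to 1699 CPM in FNI replicate 1 and 2954 CPM in FNI+I-125 replicate 3, and to 57.1 to 445 CPM elsewhere. Fibroblast markers, led by the collagens COL1A1, COL3A1 and COL1A2, summed to 69802 to 140029 CPM in the FNI group and 100726 to 193859 CPM in the FNI+I-125 group, with the highest sum in FNI+I-125 replicate 1. In bulk tissue, more cells of a type and more RNA per cell cannot be told apart.

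The comparison of FNI+I-125 with FNI asks which genes differ when the seed is added to the cut. CHI3L1 and FPR1 were higher in every FNI+I-125 library than in any FNI library. The other 6 genes overlapped between the groups. S100A8, S100A9, S100A12, CSF3 and CSF3R were highest by a wide margin in a single library, FNI+I-125 replicate 1, and LTF was highest in FNI replicate 1. In edgeR's quasi-likelihood test with an adjusted p under 0.05 and a log2 fold change of at least 1.5 in either direction, 0 of the 7 genes tested were called, as were 0 of all 14003 genes (0%). Of all genes, 2375 had an unadjusted p under 0.05, limma-voom called 0 and DESeq2 called 460 in both directions. At an unadjusted p under 0.05 with a log2 fold change of 1.5 or more, 2 of the 7 were higher, CHI3L1 and FPR1, beside 388 of 14003 genes (2.77%). None of the 7 was lower by the same rule, which 306 of all genes met (2.19%). The same 2 of the 8 had no overlap between the groups with higher values in FNI+I-125, beside 2076 of 14003 genes (14.8%), and none had no overlap with lower values, beside 1729 (12.3%). At an adjusted p under 0.05 and the same fold, DESeq2 (Wald test) called 3 of the 6 genes to which it gave an adjusted p, CHI3L1, FPR1 and CSF3, all higher, beside 290 of 14240 genes (2.04%). S100A8 and S100A9 had none.

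**Figure D1:**
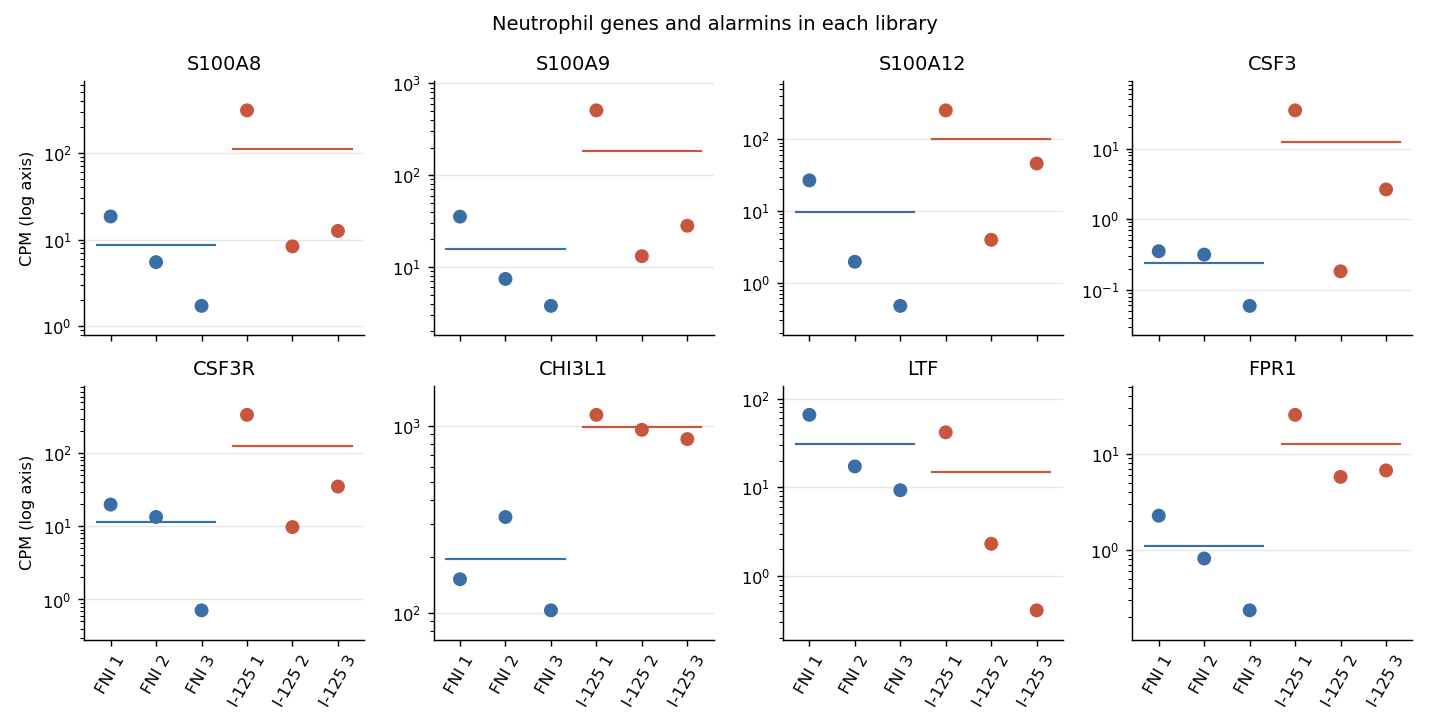
CPM of each of the 8 genes in the 3 FNI libraries (blue) and the 3 FNI+I-125 libraries (red), on a log axis whose range differs between panels, with a line at each group's mean. The groups are apart for CHI3L1 and FPR1, while for S100A8, S100A9, S100A12, CSF3 and CSF3R the mean of the FNI+I-125 group is carried by replicate 1.

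CHI3L1 encodes a secreted protein of activated macrophages, neutrophils and other cells in inflamed tissue. It stood at 151, 325 and 103 CPM in FNI against 1145, 952 and 849.5 CPM in FNI+I-125. The highest FNI+I-125 library was 1.35 times the lowest, and all 3 lay well above the FNI libraries. The means were 193 ± 117 CPM and 982 ± 150 CPM (SD, n = 3 each). The log2 fold change was 2.35 (SE, the standard error, 0.46, adjusted p = 0.280, edgeR), and the exact permutation test of log2(CPM + 1) gave p = 0.1, the smallest possible with these groups. When single libraries were left out it stayed between 2.03 and 2.95, and without FNI+I-125 replicate 1 it was 2.22. CHI3L1 was thus the gene of the 8 that depended least on any one rabbit in these fits.

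FPR1 encodes the formyl peptide receptor of neutrophils and monocytes. Its levels were 2.28, 0.819 and 0.236 CPM in FNI against 25.6, 5.78 and 6.75 CPM in FNI+I-125. Replicate 1 was the highest of the FNI+I-125 libraries, and the lowest of them was still above all FNI libraries. The FNI counts behind these values were 39, 13 and 4, so the level in FNI replicate 3 rests on few reads. The log2 fold change was 3.50 (SE 0.99, adjusted p = 0.280, edgeR), with p = 0.1 in the exact permutation test. Without FNI+I-125 replicate 1 it was 2.48, and without FNI replicate 1 it was 4.57. The summed level of markers of macrophages and monocytes, which also express CHI3L1 and FPR1, did not overlap between the groups either. Over 14 of 16 markers it was 322 to 1182 CPM in the FNI group and 1412 to 2231 CPM in the FNI+I-125 group. The lowest sum, 322 CPM, was in FNI replicate 3, and none of the 14 was at 0 in any library. Of the 13 tested, 9 were higher without overlap, beside 2076 of 14003 genes (14.8%). CD163, MRC1, C1QC and ADGRE1 overlapped. The part of these cells in the CHI3L1 and FPR1 results was not tested.

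S100A9, the larger partner of calprotectin, had 35.4, 7.43 and 3.78 CPM in FNI against 508, 13.15 and 28.2 CPM in FNI+I-125. FNI+I-125 replicate 1 was 14.35-fold above the next highest library, which was FNI replicate 1, and the other 2 FNI+I-125 libraries lay between FNI replicates 1 and 2. S100A8, its partner, stood at 18.45, 5.48 and 1.71 CPM in the FNI libraries and at 310, 8.34 and 12.6 CPM in the FNI+I-125 libraries. It had the same order of the 6 libraries as S100A9, with replicate 1 of FNI+I-125 16.8-fold above FNI replicate 1. The log2 fold changes were 3.69 for S100A8 (SE 1.68, adjusted p = 0.315, edgeR) and 3.56 for S100A9 (SE 1.65, adjusted p = 0.317, edgeR). Without FNI+I-125 replicate 1 they were 0.29 and 0.41. The exact permutation test gave p = 0.3 for both. DESeq2 gave neither gene a p, since its filter on outlying counts removed them.

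The proportion of the 2 partners varied less between libraries than their levels did. S100A8 made up 34.2%, 42.4% and 31.2% of the counts of the pair in FNI against 37.9%, 38.8% and 30.8% in FNI+I-125. The counts of the pair ran from 93 in FNI replicate 3 to 12514 in FNI+I-125 replicate 1. Their 95% Wilson intervals, which cover counting error only, were 22.7% to 41.2% and 37.0% to 38.7% in these 2 libraries. The interval of FNI+I-125 replicate 3, 27.5% to 34.4%, lay below that of FNI+I-125 replicate 1, so these libraries differed beyond counting error. Shares of counts are not corrected for transcript length, so only their change between libraries can be read. The share of S100A12 ranged more widely. Its part of the counts of S100A12 and S100A9 together was 11.1% in FNI replicate 3 (interval 5.74% to 20.4%) and 62.0% in FNI+I-125 replicate 3 (interval 59.3% to 64.6%). It was 43.0% and 20.8% in the remaining FNI libraries and 33.3% and 23.1% in the remaining FNI+I-125 libraries.

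S100A12 stood at 26.7, 1.95 and 0.473 CPM in FNI against 254, 3.96 and 46.0 CPM in FNI+I-125. FNI+I-125 replicates 1 and 3 were above all FNI libraries, and FNI+I-125 replicate 2 was below FNI replicate 1. Its spread was the widest of the 3 alarmins within both groups, 56.5-fold from lowest to highest in FNI and 64.15-fold in FNI+I-125. The log2 fold change was 3.38 (SE 1.87, adjusted p = 0.364, edgeR), with p = 0.2 in the exact permutation test. It was 1.36 without FNI+I-125 replicate 1 and 6.38 without FNI replicate 1, so each of these rabbits set much of the value. Without FNI replicate 1, S100A8, S100A9 and S100A12 were higher in FNI+I-125 without overlap, which made 5 of the 8 genes, beside 2786 of the 14333 genes tested in that fit (19.4%).

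CSF3, the ligand, had 6, 5 and 1 counts in FNI against 534, 3 and 45 in FNI+I-125. FNI+I-125 replicates 1 and 3 stood above every FNI library, and replicate 2 lay within the FNI range. The levels were 0.351, 0.315 and 0.0591 CPM against 34.9, 0.183 and 2.64 CPM. Without the filter on low counts the log2 fold change of CSF3 was 5.64 (SE 1.87, adjusted p = 0.322, edgeR), and DESeq2 gave 5.69 (SE 1.46, adjusted p = 0.00642). Without the filter and without FNI+I-125 replicate 1 it was 2.51 (SE 1.28, adjusted p = 0.566, edgeR).

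CSF3R, the receptor of CSF3 on neutrophils and monocytes, stood at 19.9, 13.5 and 0.709 CPM in the FNI libraries and at 337, 9.80 and 35.2 CPM in the FNI+I-125 libraries. The receptor had the same order of the 6 libraries as the ligand, with FNI+I-125 replicate 1 first and FNI replicate 3 last. Below FNI+I-125 replicates 1 and 3 the order of CSF3 rests on 6, 5, 3 and 1 counts, too few to rank those libraries. The groups of CSF3R overlapped because FNI+I-125 replicate 2 was below FNI replicates 1 and 2. The log2 fold change was 3.48 (SE 1.62, adjusted p = 0.318, edgeR), or 0.98 without FNI+I-125 replicate 1. The exact permutation test gave p = 0.3 for both genes.

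**Figure D2:**
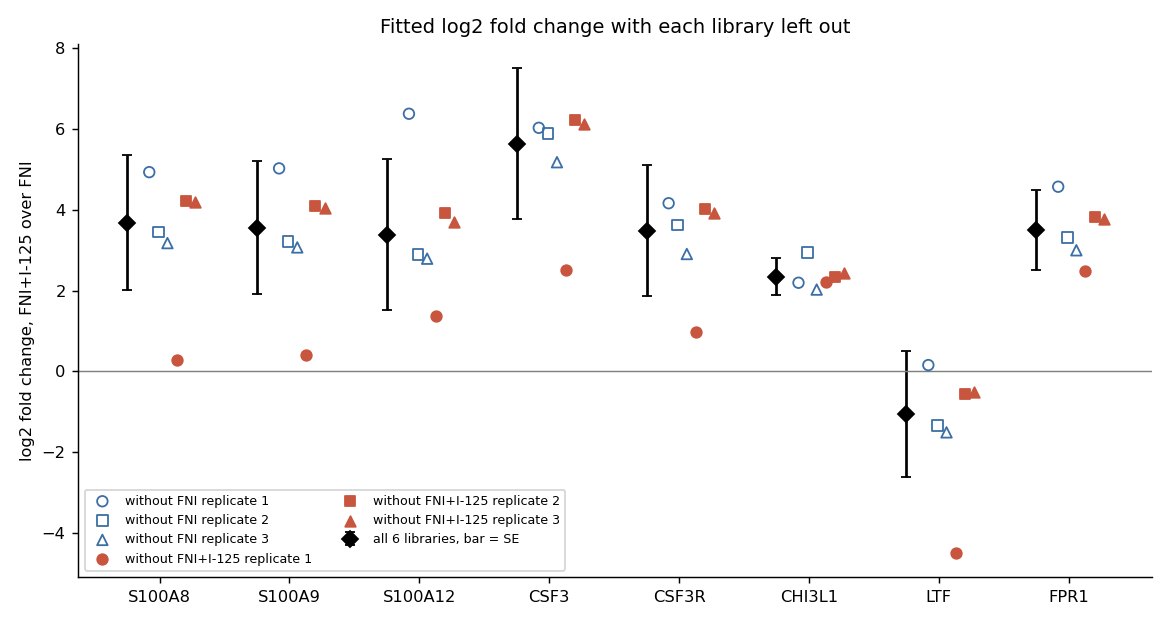
Fitted log2 fold change of FNI+I-125 over FNI for the 8 genes with all 6 libraries (black, bar = 1 standard error) and with each library left out (open blue symbols for FNI, filled red for FNI+I-125). CSF3 is from the fit without a filter on low counts. Leaving out FNI+I-125 replicate 1 brings S100A8 and S100A9 to 0.29 and 0.41 and leaves CHI3L1 at 2.22.

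LTF had another order of the libraries. It stood at 65.6, 17.2 and 9.28 CPM in FNI against 41.6, 2.31 and 0.411 CPM in FNI+I-125. FNI+I-125 replicates 2 and 3 were below all FNI libraries, while FNI+I-125 replicate 1 was the second highest of all. The counts ranged from 1120 in FNI replicate 1 to 7 in FNI+I-125 replicate 3. The log2 fold change was -1.06 (SE 1.55, adjusted p = 0.726, edgeR), with p = 0.3 in the exact permutation test. It was -4.49 without FNI+I-125 replicate 1 (adjusted p = 0.502, edgeR). In that fit LTF was lower without overlap, beside 2309 of 14344 genes tested (16.1%). The log2 fold change was 0.16 without FNI replicate 1, so the direction of LTF was not fixed across these fits. LCN2, another protein of the secondary granule that epithelium and gland also make, is named after its value was seen. It stood at 25.5, 33.4 and 0.709 CPM against 3.92, 1.58 and 4.23 CPM, and its log2 fold change was -2.61 (adjusted p = 0.317, edgeR).

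Epithelium and gland markers were set beside S100A8, S100A9 and LTF because these tissues can make them. In FNI+I-125 replicate 1, which was highest for S100A8 and S100A9, the 17 epithelium markers found (of 18) had their lowest sum, 57.1 CPM, and KRT5, the keratin of basal squamous cells, stood at 1.57 CPM. In FNI+I-125 replicate 3, with KRT5 at 948 CPM and the highest sum, LTF was at its lowest. FNI replicate 1, with KRT5 at 604 CPM, was highest for LTF and second for S100A8 and S100A9. KRT13, a keratin of lining mucosa, stood at 146 and 486.5 CPM in these 2 epithelium-rich libraries and at 5.61 CPM or less elsewhere. Desmoplakin (DSP), a junction protein of epithelium, had 173 and 342.5 CPM in these 2 libraries and 3.04 to 76.7 CPM in the others. No epithelium marker was at 0 in all libraries.

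The salivary gland list gave 13 of 20 markers, with sums of 980 to 58500 CPM in the FNI group and 1122 to 1882 CPM in the FNI+I-125 group, and no marker at 0 in all libraries. DNASE1, a secreted nuclease, stood at 2419, 48086 and 15.8 CPM in the FNI libraries and at 573, 16.2 and 13.4 CPM in the FNI+I-125 libraries. CA6, a carbonic anhydrase of saliva, had 607, 8785 and 3.49 CPM against 134, 2.19 and 2.11 CPM. Both had the same order of FNI replicate 2, FNI replicate 1 and FNI+I-125 replicate 1 at the top, and these 3 libraries also had the 3 highest levels of LTF, with FNI replicate 1 first. CST3, the secreted cystatin C that many cells make, stood at 457, 692 and 666 CPM against 294, 1811 and 939 CPM and did not have that order. It was most of the gland sum in FNI replicate 3 (666 of 980 CPM) and in FNI+I-125 replicates 2 (1811 of 1882 CPM) and 3 (939 of 1488 CPM). DNASE1 and CA6 were at their lowest in these libraries, so the sums there do not measure gland alone. The part of gland and epithelium in the levels of LTF, S100A8 and S100A9 was not tested beyond these values.

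**Figure D3:**
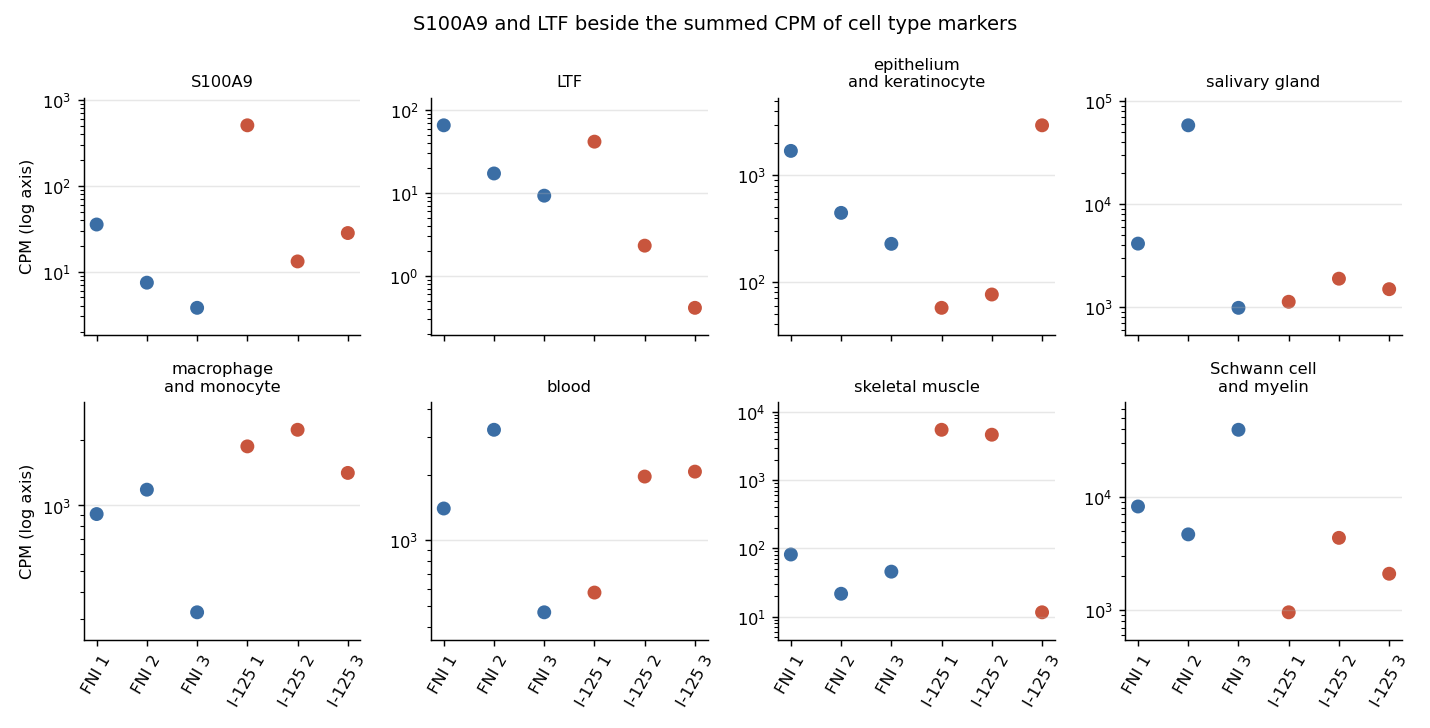
CPM of S100A9 and LTF and summed CPM of 6 marker lists in each library, on log axes whose range differs between panels (blue, FNI; red, FNI+I-125). The library highest for S100A9, FNI+I-125 replicate 1, has the lowest epithelium sum, and the macrophage sums of the 2 groups do not overlap. CST3, which many cells express, is most of the salivary gland sum in FNI replicate 3 and FNI+I-125 replicates 2 and 3.

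Blood was checked because neutrophils can arrive with blood left in the tissue. The 8 blood markers found (of 13) summed to 467 to 3224 CPM in the FNI group and 575 to 2070 CPM in the FNI+I-125 group. HBB2, a globin, stood at 517 CPM in FNI+I-125 replicate 1 and at 425.5 to 3042 CPM in the other libraries. ALAS2, the heme enzyme of red cell precursors, had 22.9 CPM there and 21.6 to 157 CPM elsewhere. ITGA2B, an integrin of platelets, had 21.6 CPM there and 9.92 to 19.0 CPM elsewhere. PPBP, a platelet chemokine on the same list, was also highest there, at 12.4 CPM against 0.118 to 4.17 CPM elsewhere. It was higher in FNI+I-125 without overlap, with only 4, 7 and 2 counts in FNI. The part of blood in these results was not tested.

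FNI+I-125 replicate 1 was the highest of the 6 libraries for 7 of the 8 genes, all but LTF, and for 3382 of the 14003 genes tested (24.2%). Its level was at least 5-fold above every other library for 5 of the 8, namely S100A8, S100A9, S100A12, CSF3 and CSF3R, and for 44 of all genes tested (0.314%). It was at least 10-fold above for S100A8, S100A9 and CSF3 and for 10 of all genes tested. CSF3 is not among the genes tested.

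The genes nearest in pattern were found by the root mean square difference of log2(CPM + 1) over the 6 libraries, after centring each gene on its own mean. Only tested genes listed by symbol were compared, so those with only a LOC number or a date were left out. S100A8 and S100A9 differed from each other by 0.23, and no other gene compared was closer to either. Outside the 8, the nearest to S100A8 and to S100A9 were PGLYRP1, a peptidoglycan-binding protein of neutrophil granules (0.53 and 0.50), and SFTPD, the collectin surfactant protein D (0.55 and 0.48). PGLYRP1 stood at 7.85, 2.90 and 0.355 CPM in the FNI libraries and 102, 4.99 and 13.85 CPM in the FNI+I-125 libraries. PGLYRP1 was also the nearest outside the 8 to S100A12 (0.88), followed by LRRC15, a membrane protein of fibroblasts (1.05). For CSF3R the nearest were FGF23, the phosphate hormone (0.44), and C13H1orf162 (0.52).

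The nearest genes differed for the remaining 3. CHI3L1 was closest to TFEC, a transcription factor of macrophages (0.29). TFEC stood at 6.09, 10.8 and 1.655 CPM against 33.6, 27.6 and 22.1 CPM. FPR1 was closest to CD244, a receptor of natural killer and other white blood cells (0.33), and PLEKHG4 (0.395). LTF had no near gene among those compared, with HOXA3 at 1.10 and PXDNL at 1.255. The nearest of the other 7 genes to LTF was S100A8, which differed from it by 2.205 and ranked 11222 in likeness.

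Other neutrophil genes were read from lists written from general knowledge, and each list is described by counts. Of all 14003 genes tested, 7161 (51.1%) had a positive log2 fold change, 388 (2.77%) were higher at the unadjusted p with the fold and 2076 (14.8%) were higher without overlap, and their median log2 fold change was 0.01. Of 26 granule protein and oxidase genes, 18 were in the files and 14 were tested. Of these, 13 had a positive and 1 a negative log2 fold change, the median was 2.13, and 6 were higher without overlap. None was called at the adjusted p, and 2 were higher at the unadjusted p, NCF1 and ARG1. NCF1, a cytosolic subunit of the phagocyte oxidase, had 2.75, 3.09 and 0.236 CPM against 9.935, 8.095 and 11.04 CPM (log2 fold change 2.26, SE 0.81, adjusted p = 0.280, edgeR). All 3 FNI+I-125 libraries were above the FNI range. ARG1, arginase of neutrophil granules and of some macrophages, had 0.8785, 3.72 and 0 CPM against 59.6, 5.965 and 12.97 CPM. SERPINB1, the inhibitor of neutrophil elastase, had 33.9, 25.6 and 16.1 CPM against 51.3, 38.1 and 53.1 CPM. HP, the haemoglobin-binding haptoglobin, had the highest mean CPM of the list, at 728 to 848 CPM in FNI and 541 to 1114 CPM in FNI+I-125.

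Several granule transcripts were scarce. MPO, the myeloperoxidase of primary granules, had 0, 2 and 0 counts in FNI against 3, 2 and 5 in FNI+I-125, and a count of 0 allows up to 3. CAMP, the cathelicidin of secondary granules, had 1, 4 and 3 counts against 8, 0 and 16. BPI, a protein that kills Gram-negative bacteria, had 3, 9 and 0 counts against 59, 13 and 5, again with FNI+I-125 replicate 1 first. Neutrophils make most of their granule proteins in the bone marrow before release. These 3 genes are named after their values were seen and did not pass the filter.

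Among surface receptors, 20 of 26 listed were in the files and 19 were tested. Of these, 17 had a positive log2 fold change, the median was 1.90, 9 were higher and 1 was lower at the unadjusted p, 10 were higher without overlap and 1 was lower without overlap. FPR2, the sister receptor of FPR1, had 0.820, 0.819 and 0 CPM in the FNI libraries and 26.5, 4.63 and 10.5 CPM in the FNI+I-125 libraries (log2 fold change 4.65, SE 1.201, adjusted p = 0.280, edgeR). It was 3.78 without FNI+I-125 replicate 1. How reads shared by FPR1 and FPR2 were counted is not given in the sources used here. CLEC4E, a receptor for glycolipids of dead cells and mycobacteria, had 7.38, 10.1 and 1.18 CPM against 37.5, 51.3 and 31.3 CPM. ITGB2, the shared beta chain of the leukocyte integrins, had 124, 163 and 26.5 CPM against 419, 812 and 425.5 CPM. These genes are shared with macrophages. MME, a membrane peptidase that neutrophils and stromal cells carry, was the gene lower by both counts, at 29.8, 43.8 and 107 CPM against 11.4, 24.6 and 13.8 CPM.

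CXCR1 and CXCR2, the receptors for CXCL8 that are most typical of neutrophils, are named after their values were seen. CXCR1 stood at 8.79, 8.38 and 3.01 CPM against 124, 4.99 and 11.3 CPM, and CXCR2 at 3.51, 1.57 and 0.236 CPM against 47.5, 1.95 and 4.93 CPM. Both were far highest in FNI+I-125 replicate 1 and overlapped otherwise, as S100A8 and S100A9 did. Their log2 fold changes were 2.80 and 3.34, or 0.28 and 0.95 without that library.

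**Figure D4:**
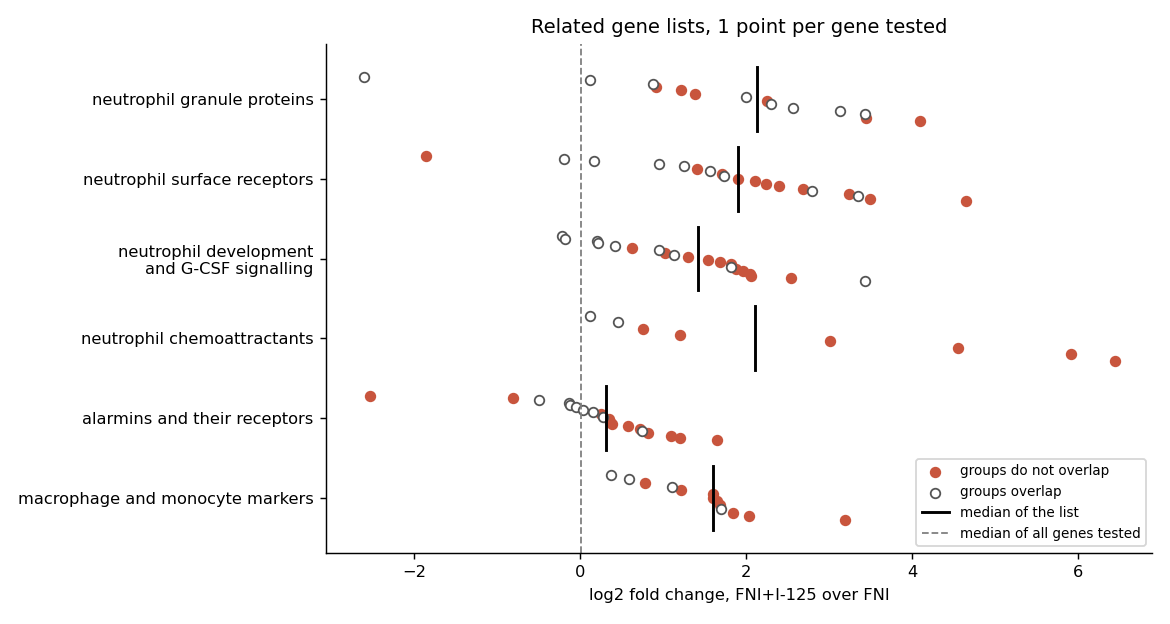
Fitted log2 fold change of FNI+I-125 over FNI for each tested gene of 6 lists (1 point per gene; filled, groups do not overlap; open, groups overlap), with the median of each list (black) and of all genes tested (dashed). The medians run from 0.31 for alarmins to 2.13 for granule proteins.

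Of the list for neutrophil development and G-CSF signalling, 20 of 23 genes were tested. Of these, 18 had a positive log2 fold change, with a median of 1.42, 7 were higher at the unadjusted p and 11 were higher without overlap. CEBPB, a transcription factor of emergency granulopoiesis, had 64.5, 74.3 and 33.1 CPM against 280.5, 188 and 135 CPM (log2 fold change 1.81, SE 0.40, adjusted p = 0.280, edgeR). CXCR4, the receptor that keeps neutrophils in the marrow, had 10.1, 14.5 and 3.55 CPM against 31.7, 23.2 and 26.7 CPM. SPI1, which encodes the myeloid factor PU.1, and LYN, a kinase downstream of CSF3R, had log2 fold changes of 2.05 and 1.30 without overlap. STAT3, which carries the signal of CSF3R, had the highest mean CPM of the list, at 229 to 418.5 CPM in FNI and 362.5 to 452 CPM in FNI+I-125. SOCS3, the inhibitor that STAT3 induces, is named after its value was seen, at 42.05, 42.4 and 8.865 CPM against 246, 44.0 and 53.6 CPM. Its groups did not overlap, but FNI+I-125 replicate 2 was barely above FNI replicate 2. Without FNI+I-125 replicate 1 the count of this list at the unadjusted p was 1 in place of 7, while that of all genes was 266 in place of 388. The count of the list without overlap was 12 in place of 11, and that of all genes was 2688 in place of 2076.

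Among chemoattractants and cytokines, 8 of the 15 listed were tested, all with a positive log2 fold change. The median was 2.10, 4 were higher at the unadjusted p and 6 were higher without overlap. CXCL8, the main ligand of CXCR1 and CXCR2, stood at 2.17, 2.08 and 1.18 CPM in the FNI libraries and 435, 12.2 and 28.1 CPM in the FNI+I-125 libraries. PPBP, a chemokine of platelets, had 0.234, 0.441 and 0.118 CPM against 12.4, 2.50 and 4.17 CPM (log2 fold change 4.56, SE 0.85, adjusted p = 0.280, edgeR). Its FNI counts were 4, 7 and 2, below the minimum count of 10, so it passed the filter through the FNI+I-125 libraries alone. PPBP is among the 4 and the 6, and its fold rests on few FNI reads. TNF had 0.351, 1.39 and 0.118 CPM against 5.88, 5.965 and 3.17 CPM. For IL1B, which induces CSF3 in stromal cells, FNI+I-125 replicate 1 was again first, with 343 CPM against 0.709 to 16.4 CPM in the other libraries. ANXA1, which limits neutrophil entry and signals through the formyl peptide receptors, had 498, 507 and 269 CPM against 556, 768 and 835 CPM.

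The other alarmins and their receptors had a median nearer to that of all genes. Of 27 listed, 20 were tested, with a median log2 fold change of 0.31 and 14 positive values, and 0 were higher and 1 was lower, S100B, at the unadjusted p with the fold. Without overlap 10 were higher and 2 were lower, beside 14.8% and 12.3% of all genes tested. S100A11, a widely expressed S100 protein, had 382, 317 and 247 CPM against 660, 500 and 506 CPM (log2 fold change 0.82, SE 0.22, adjusted p = 0.280, edgeR). MYD88, the adaptor of TLR4 and of the IL-1 receptor, had 62.3, 60.1 and 40.2 CPM against 88.1, 82.9 and 70.9 CPM. AGER, which encodes RAGE, was lower without overlap, at 10.4, 7.87 and 16.9 CPM against 6.21, 7.00 and 6.87 CPM. S100B, the S100 protein of Schwann cells, was also lower without overlap, at 161, 148 and 1137 CPM against 32.2, 125 and 91.9 CPM. LRP1, a scavenger receptor and the gene of highest mean CPM in the list, had 2236 to 2418 CPM in FNI and 2598 to 3207 CPM in FNI+I-125, also without overlap. HMGB1, a nuclear alarmin named after its value was seen, had 198 to 235 CPM in all 6 libraries. IL1A, also named after its value was seen, did not pass the filter. It had 0, 5 and 2 counts in FNI against 300, 7 and 90 in FNI+I-125, higher without overlap.

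Without FNI+I-125 replicate 1, the medians of the 5 lists were 1.47 for granule proteins, 1.52 for surface receptors, 0.96 for development and G-CSF signalling, 1.63 for chemoattractants and 0.37 for alarmins, beside 0.01 for all genes. In that fit 9 granule, 10 receptor and 7 chemoattractant genes were higher without overlap, and 4, 7 and 4 passed the unadjusted p with the fold. Of all 14344 genes tested in that fit, 2688 (18.7%) were higher without overlap and 266 (1.85%) passed the unadjusted p with the fold. Among macrophage markers the median was 1.13, and 9 of 13 were higher without overlap, as with all libraries. FNI replicate 3 was the lowest library for each of the 8 genes but LTF. Without it the medians of the 5 lists were 1.71, 1.52, 1.03, 1.63 and 0.34 in the same order. That of macrophage markers was 1.16. At the unadjusted p with the fold, 3 granule, 5 receptor, 4 development, 3 chemoattractant and 1 alarmin genes were higher. So were 2 macrophage markers, in place of 6, beside 239 of 14364 genes (1.66%). CD68, a lysosomal protein of macrophages, had 91.2, 133 and 16.5 CPM against 179, 497 and 309 CPM. CSF1R, the receptor for macrophage growth factor, had 219, 275.5 and 77.2 CPM against 336, 345 and 297 CPM. C1QC, a chain of complement C1q made by tissue macrophages, overlapped, at 183.5, 240.2 and 94.0 CPM against 253, 281 and 133 CPM.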

How the data were processed

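RNA of 3 FNI and 3 FNI+I-125 facial nerves was sequenced by the authors from poly(A) RNA with a stranded paired-end kit, and the files deposited by the authors hold raw read counts per gene. The submitters' processing notes name HISAT2 and the rabbit build OryCun 2.0. The counting program and the treatment of reads shared by paralogs are not given in the sources used here. The methods give 3 rabbits per group, and the p-values measure the spread between these samples. Groups were taken from the sample labels.

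Of 17396 genes listed, 2992 have only a LOC number, and RefSeq gave a symbol for 542 of those. In 25 rows a spreadsheet date replaces the symbol. They hold 0.188% of the counts and are named nowhere. Genes were filtered with filterByExpr at a minimum count of 10, scaled by TMM and tested with edgeR 4.0.16 (quasi-likelihood test, Benjamini-Hochberg adjustment over 14003 genes) in R 4.3.3. The standard error is the log2 fold change divided by the root of the F statistic. Single genes were also tested by a two-sided exact permutation test of log2(CPM + 1), whose smallest p is 0.1. Alternatives were DESeq2 1.42.0, limma-voom (limma 3.58.1), the other quasi-likelihood setting, other scalings and filters, the replicate number as a block and leaving out each library. The fits were tested on simulated data, drawn with equal means within each group and so without uneven tissue or an outlying library. That test does not bear on genes that 1 library dominates. Total counts were 16031151 to 16798012 and the common biological coefficient of variation was 43.0%.

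The 8 genes and the lists were chosen with earlier results of these data known. The genes named beside the 8 are, in each list of neutrophil or alarmin genes, the 4 of smallest p and the 1 of highest mean CPM, in each marker list 3 of highest mean CPM, and 2 of nearest pattern for each of the 7 genes tested. Others are said to be named after their values were seen. Some genes that this rule names are not reported here. No sequence or coordinate is printed.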

Additional observations from a re-analysis of the deposited data

How the results depend on the processing

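DESeq2 called 460 of all genes and 3 of the 8, where edgeR called 0 of both. Leaving out 1 library gave 0 to 40 genes called, 40 of them without FNI+I-125 replicate 3, and 0 of the 8 in each case. The count of the 8 higher at the unadjusted p, 2 in the report, was 4 with DESeq2 (CHI3L1, FPR1, CSF3 and CSF3R). It was 1 with at least 10 counts in every library, a filter that removes S100A12, CSF3, LTF and FPR1. The share of all genes by this rule was not computed for these 2 settings, so these 2 counts have no background by the same rule. Without the fold and in both directions, 3252 of 17396 genes with DESeq2 and 2247 of 12584 with that filter had an unadjusted p under 0.05. With 1 library left out the count of the 8 was 2 to 6, beside 1.66% to 3.6% of all genes tested. It was 6 without FNI+I-125 replicate 2, beside 309 of 14327 genes (2.16%). The count without overlap was 2 to 5 with 1 library left out, 5 without FNI replicate 1 or without FNI+I-125 replicate 2, where 19.4% and 18.7% of all genes tested were higher without overlap. The log2 fold change of LTF was -4.49 to 0.16 with 1 library left out and turned positive without FNI replicate 1. The other 7 genes kept a positive log2 fold change in every alternative that gave a value. The cause of these shifts was not tested.

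With the replicate block the count of the 8 higher at the unadjusted p was 5 (S100A8, S100A9, S100A12, CHI3L1 and FPR1). LTF was lower by the same rule, and 0 were called at the adjusted p. The share of all genes by that rule was not computed for this fit, so the 5 are not read as a result about the 8 genes. Without the fold and in both directions, 2220 of 14003 genes had an unadjusted p under 0.05 in it. Deviations of same-numbered libraries correlated at 0.052, -0.191 and -0.137 for numbers 1, 2 and 3, and no library correlated best with its own number, so the numbers were not taken to pair the samples. Alternatives that leave out a library with the low-count filter removed (CSF3), and those for the gene lists, were chosen after seeing the data. Levels that rest on few counts, such as CSF3 and MPO, carry the most counting error.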
